A study of Rattus norvegicus with 6 samples.

Results

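Cyb5r3 encodes NADH-cytochrome b5 reductase, and 8 genes of the electron transfer chain to which it belongs were followed here in rat neurons: the reductase genes Cyb5r1, Cyb5r2, Cyb5r3 and Cyb5r4, the cytochrome b5 genes Cyb5a and Cyb5b, the P450 reductase gene Por, and the desaturase gene Scd. They were taken by gene symbol, with the brightest probe set per gene, and all 8 were measured, among 18166 genes in all. Each of the 8 had 1 probe set with a single symbol. The set was selected on the measured difference of Cyb5r3 between the groups, which was the furthest fall of the bright genes, so that difference is given as a description and without a test. The other 7 genes were chosen as members of the same chain.

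Cytochrome b5 is a small haem protein of the endoplasmic reticulum and of the outer membrane of mitochondria that carries single electrons. Cyb5r3 loads it from NADH, Por can load it from NADPH, and the reduced protein hands its electrons to enzymes such as the fatty acid desaturases, which place double bonds in lipid chains, and to some cytochromes P450. In nervous tissue the chain is known for its part in making unsaturated fatty acids, sterols and sphingolipids, and recessive loss of CYB5R3 in people causes methaemoglobinaemia, in its severe form with neurological disease.

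The 6 arrays came from primary neurons of the hippocampus of rat embryos (day 18), grown with 10 µM FUDR, which stops dividing cells. Adeno-associated virus was added on day 4 in vitro (1800000 infectious units per ml), and RNA was isolated on day 14. In 3 experiments, neurons received a control shRNA in 1 sample and an Ncoa3 shRNA in another, which gives 3 arrays per group; nothing else is labelled as differing between them, and the labels do not name the promoter that drives the hairpins, the target of the control hairpin or the share of infected cells. Ncoa3 is a coactivator of nuclear receptors, and the comparison asks how expression differed after its knockdown.

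The promoters of the 4 cytochrome b5 reductase genes and of Por are shown first, since these genes load the carrier and their RNA levels are compared below. The sequences are the 250 bases before the annotated start of each gene, in the direction of the gene, from RefSeq (GRCr8), which held all 8 members. They lie at chr7:116204291-116204540 on the minus strand for Cyb5r3, chr13:48400811-48401060 on the plus strand for Cyb5r1, chr1:171075847-171076096 on the minus strand for Cyb5r2, chr8:96860839-96861088 on the plus strand for Cyb5r4 and chr12:26635810-26636059 on the minus strand for Por. Capitals mark matches on either strand to the GC box GGGCGG. They also mark the CCAAT box, the TATA box letters (TATAAA) and the core nuclear receptor motif, whose letters are AGGTCA, and no marked matches overlap.
Cyb5r3: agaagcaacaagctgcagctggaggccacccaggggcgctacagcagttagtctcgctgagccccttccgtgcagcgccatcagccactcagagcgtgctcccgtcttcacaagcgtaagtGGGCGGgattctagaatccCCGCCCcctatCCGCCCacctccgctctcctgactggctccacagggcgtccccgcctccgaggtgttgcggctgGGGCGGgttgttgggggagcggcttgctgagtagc
Cyb5r1: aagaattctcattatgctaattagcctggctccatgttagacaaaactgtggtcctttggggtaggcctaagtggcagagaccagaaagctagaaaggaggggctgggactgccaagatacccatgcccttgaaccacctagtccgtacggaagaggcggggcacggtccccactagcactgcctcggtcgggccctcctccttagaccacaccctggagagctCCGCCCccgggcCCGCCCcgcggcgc
Cyb5r2: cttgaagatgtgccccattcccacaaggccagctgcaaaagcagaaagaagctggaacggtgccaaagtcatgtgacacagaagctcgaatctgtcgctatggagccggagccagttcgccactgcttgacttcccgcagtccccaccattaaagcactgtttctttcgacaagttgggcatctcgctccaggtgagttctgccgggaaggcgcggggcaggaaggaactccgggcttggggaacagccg
Cyb5r4: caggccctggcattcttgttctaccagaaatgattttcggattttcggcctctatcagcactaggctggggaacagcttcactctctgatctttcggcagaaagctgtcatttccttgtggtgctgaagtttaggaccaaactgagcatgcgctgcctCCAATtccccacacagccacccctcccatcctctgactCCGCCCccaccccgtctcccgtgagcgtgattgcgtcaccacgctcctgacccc
Por: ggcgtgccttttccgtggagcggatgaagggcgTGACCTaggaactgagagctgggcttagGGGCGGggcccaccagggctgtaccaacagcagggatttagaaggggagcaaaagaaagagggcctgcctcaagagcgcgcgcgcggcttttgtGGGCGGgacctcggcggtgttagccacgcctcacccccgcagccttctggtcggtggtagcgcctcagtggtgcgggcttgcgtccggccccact
The window of Cyb5r3 held 4 matches to GGGCGG and none to the other motifs, and that of Cyb5r2 held none to any of the 4 motifs. Those of Cyb5r1 and Por held 2 matches to GGGCGG each, that of Por also 1 to AGGTCA, and that of Cyb5r4 held 1 to GGGCGG and 1 to CCAAT. Over all 8 genes, 5 held GGGCGG, 3 CCAAT, 1 AGGTCA and 0 TATAAA, where 30.5%, 34.0%, 14.1% and 12.9% of the 33469 windows in the table did. The 8 windows held 56% to 66% G and C, against a median of 51.2% over all windows, and no comparison was made with windows of like content. A match describes the letters and marks no known binding site.

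All arrays gave 1 log2 signal per probe set, and a whole-table feature bears on every value below. The mean array median was 7.15 ± 0.0899 (SD, n = 3) for the controls and 6.86 ± 0.0910 (SD, n = 3) for the knockdown arrays, and the median difference over all genes was -0.25. Arrays of the same group shared between 8680 and 13979 identical probe set values, against 0 to 2 for arrays of different groups. Run and group cannot be told apart if the groups were processed separately, and p-values leave out any error between such runs. Changes are therefore given after quantile normalization, which gives all 6 arrays the same distribution, and levels as deposited. Ncoa3 itself stood at 8.79, 8.88 and 8.37 with control shRNA in experiments 1, 2 and 3 and at 7.43, 7.43 and 7.39 with Ncoa3 shRNA, a change of -0.97 ± 0.142 (SE; limma's adjusted p = 0.00747), and without both arrays of experiment 1 or of experiment 2 the change was -0.92 and -0.88 (adjusted p = 0.134 and 0.123). All 8 listed neuron markers were bright (median at percentile 99.5 of all genes) and 0 passed limma's test (1 at an unadjusted p under 0.05), where 19.5% of all genes passed. With the experiment as a block 1 fell, where 18.6% of all genes did, and 3 were lower as deposited, where 43.3% of all genes were.

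Cyb5r3 RNA was far lower on every Ncoa3 shRNA array than on any control array. On the deposited log2 scale it read 12.68, 12.75 and 12.95 with control shRNA in experiments 1, 2 and 3, a mean of 12.79 ± 0.139 (SD, n = 3). With Ncoa3 shRNA it was 10.03, 10.45 and 10.79, a mean of 10.42 ± 0.379 (SD, n = 3). The lowest control array lay 1.89 log2 units above the highest Ncoa3 shRNA array, and no 2 arrays of the 6 held the same value.

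After quantile normalization the difference of Cyb5r3 was -2.21, or 4.64-fold lower. By experiment it was -2.52, -2.19 and -1.94, that is 5.72-fold, 4.56-fold and 3.83-fold lower. Set against the 500 genes nearest in mean signal, whose median deposited difference was -0.15, the deposited difference of -2.37 became -2.22. The choice of scaling thus moved it little, and over all alternatives it ran from -2.40 to -2.00. It ranked first among the falls of all 18166 genes, and the gene just outside that choice was Map9 at -1.67.

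**Figure D1:**
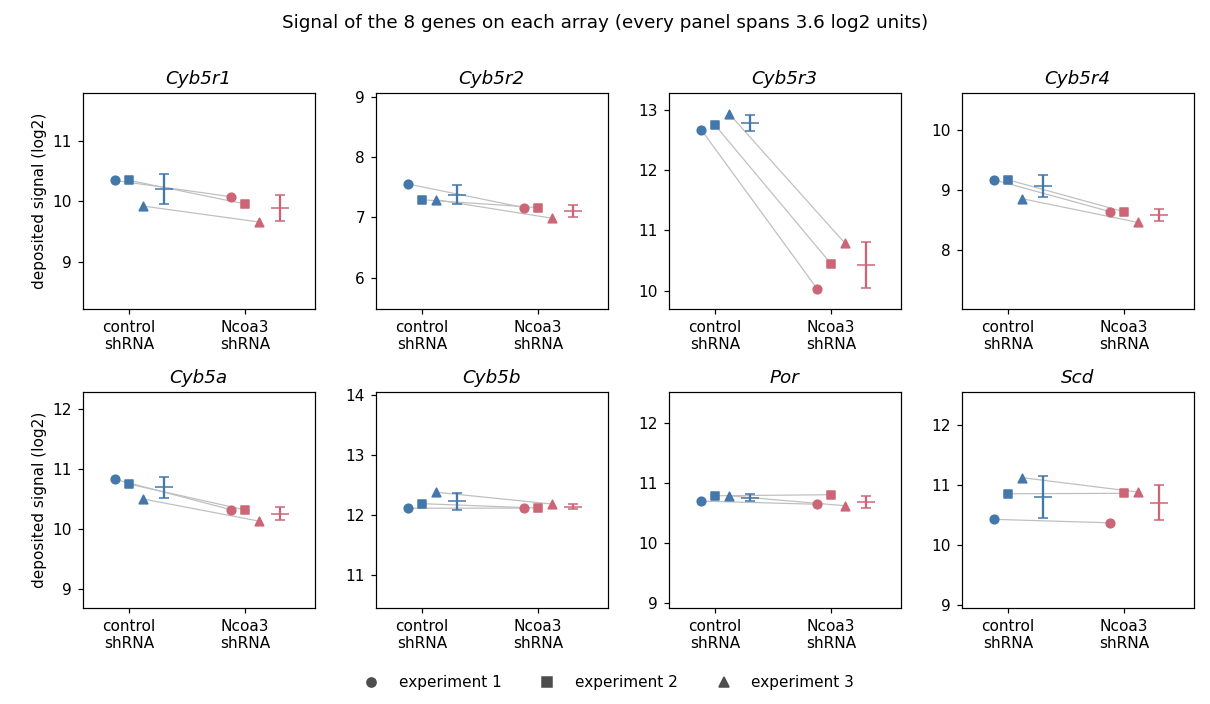
Deposited log2 signal of the 8 genes on the y axis, by shRNA group on the x axis; points are arrays, marker shapes the experiments, grey lines join the arrays of an experiment, and crosses with bars give the mean ± SD (n = 3). In Cyb5r3 the Ncoa3 shRNA arrays lie 1.89 log2 units or more under the control arrays, and in Cyb5r1, Cyb5b, Por and Scd the groups overlap.

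The other reductase genes stood much closer between the groups. Cyb5r1, a membrane-bound relative of Cyb5r3, had deposited signals of 10.35, 10.35 and 9.92 with control shRNA in experiments 1, 2 and 3 and 10.08, 9.96 and 9.66 with Ncoa3 shRNA. The groups overlapped, since control shRNA in experiment 3 lay below Ncoa3 shRNA in experiments 1 and 2. Its change was -0.06 ± 0.124 (SE; 95% interval -0.37 to 0.24; limma's adjusted p = 0.765).

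Cyb5r2, a further member of the reductase family, was the dimmest of the 8 and lay at percentile 39.9 of all genes. Its signals were 7.55, 7.29 and 7.29 with control shRNA and 7.16, 7.16 and 6.99 with Ncoa3 shRNA, the control values of experiments 2 and 3 and the Ncoa3 shRNA values of experiments 1 and 2 being identical. The deposited groups did not overlap, but after quantile normalization they did, and the change was 0.01 ± 0.136 (SE; 95% interval -0.32 to 0.34; adjusted p = 0.973), against -0.28 in the deposited values.

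Cyb5r4 joins a cytochrome b5 domain and a reductase domain in 1 protein. Its signals were 9.16, 9.16 and 8.85 with control shRNA, the first pair identical, and 8.63, 8.63 and 8.45 with Ncoa3 shRNA. The groups were apart in the deposited values, by 0.21, and overlapped slightly after quantile normalization, where the change was -0.21 ± 0.0981 (SE; 95% interval -0.45 to 0.03; limma's adjusted p = 0.192). With the experiment as a block Cyb5r4 fell (adjusted p = 0.0271), by -0.26, -0.22 and -0.15 in experiments 1, 2 and 3.

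The electron carriers came next. Cyb5a, the form of the endoplasmic reticulum, stood at 10.83, 10.75 and 10.50 with control shRNA and at 10.32, 10.32 and 10.13 with Ncoa3 shRNA. Every control array lay above every Ncoa3 shRNA array, also after quantile normalization. The change was -0.22 ± 0.0806 (SE; 95% interval -0.42 to -0.03; limma's adjusted p = 0.108), or 1.17-fold lower, and it passed once the experiment entered as a block (adjusted p = 0.0342). It also passed without control shRNA replicate 3 (adjusted p = 0.0434), where 1906 of all 18166 genes passed lower, and without experiment 3 (0.0309). The change of Cyb5r4 passed without experiment 3 (0.0102). In that fit without experiment 3, 3918 of all genes passed lower.

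Cyb5b, the form of the outer mitochondrial membrane, stood at 12.12, 12.19 and 12.38 with control shRNA and at 12.12, 12.12 and 12.19 with Ncoa3 shRNA. The groups overlapped. The change was 0.04 ± 0.0776 (SE; 95% interval -0.15 to 0.23; adjusted p = 0.786), and the deposited difference was -0.09, so the sign depends on the scaling. Within each array the deposited log2 signal of Cyb5a minus that of Cyb5b changed by -0.51, -0.36 and -0.17 in experiments 1, 2 and 3, a mean of -0.35 that does not depend on array scaling by a constant. The sign was the same in all 3 experiments. An offset that varies with signal can still move this mean. The 500 genes nearest in mean signal had a median deposited difference of -0.20 for Cyb5a and -0.12 for Cyb5b. With the experiments as pairs, an exact two-sided permutation test over 8 sign changes gave p = 0.25, the smallest it can give, and over the 20 unpaired splits of 3 against 3 arrays p = 0.3, where the smallest is 0.1, so neither can reach 0.05.

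Por, the flavoprotein that passes electrons from NADPH to the P450 enzymes, stood at 10.70, 10.78 and 10.78 with control shRNA and at 10.64, 10.80 and 10.62 with Ncoa3 shRNA. The array with the highest signal was an Ncoa3 shRNA array, and so was the lowest. Its change was 0.14 ± 0.0715 (SE; 95% interval -0.04 to 0.31; adjusted p = 0.240) after quantile normalization and -0.07 in the deposited values.

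Scd, a desaturase of the endoplasmic reticulum that makes monounsaturated fatty acids with electrons from cytochrome b5, spread widely within each group. Its signals were 10.43, 10.86 and 11.13 with control shRNA and 10.37, 10.87 and 10.89 with Ncoa3 shRNA. Both arrays of experiment 1 were the lowest of their group. The change was 0.11 ± 0.239 (SE; 95% interval -0.47 to 0.69; adjusted p = 0.798), and -0.10 in the deposited values.

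Of the 7 genes tested, 0 rose and 0 fell in limma's test after quantile normalization, and 1 had an unadjusted p under 0.05. Of all genes 19.5% passed, 10.5% higher and 9.04% lower. With the experiment as a block 0 rose and 2 fell (Cyb5r4 and Cyb5a), where 20.8% of all genes rose and 18.6% fell. In the deposited values 2 were lower (the same pair, adjusted p = 0.0237 and 0.0303) and 0 higher, where 47.2% of all genes passed, 3.97% higher and 43.3% lower. The groups did not overlap, with Ncoa3 shRNA lower, in 1 of the 7 after quantile normalization (19% of all genes) and in 3 as deposited (55.6% of all genes), and with Ncoa3 shRNA higher in 0 after quantile normalization (21.5% of all genes). The median change of the 7 was 0.01, as it was for all genes. In RNA from whole cultures, fewer cells of a type and less RNA per cell cannot be told apart.

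**Figure D2:**
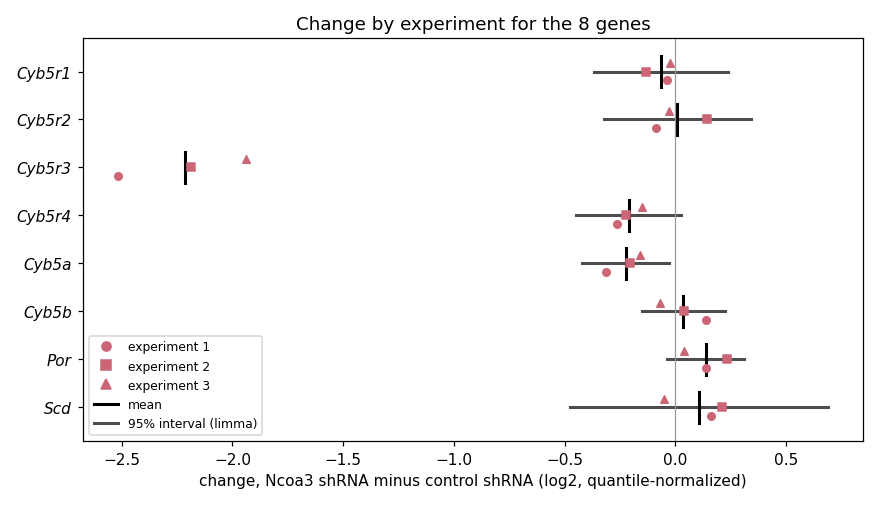
Change of each gene on the x axis (log2 after quantile normalization, Ncoa3 shRNA minus control shRNA), with genes on the y axis; points are experiments, black bars the mean, and grey bars limma's 95% interval for the 7 genes tested. Cyb5r3 lies at -2.52 to -1.94, and the intervals of the others lie between -0.47 and 0.69.

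The spread between experiments is a contrast that did not choose Cyb5r3. Scd differed between the experiments (limma's moderated F over experiments with the group in the fit, adjusted p = 0.0484), with quantile-normalized means over both groups of 10.37, 10.83 and 11.06 in experiments 1, 2 and 3. It was the only member of 8 to pass, where 18.8% of all genes did. Cyb5r1 came next at an adjusted p of 0.0502, with means of 10.18, 10.13 and 9.86. The call of Scd was lost in the deposited values (adjusted p = 0.110), where 347 of all genes passed. With cyclic loess it was also lost (0.0719), and 240 of all genes passed. The same held when control shRNA replicate 1 or 2, Ncoa3 shRNA replicate 1 or 2, or any experiment was left out (adjusted p up to 0.307). In each of these leave-out fits 0 of all genes passed, so no gene kept its call there.

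After quantile normalization each member differed between experiments 1 and 3 in the same direction in both groups. The share of all genes that did so was not counted. Over all 18166 genes, deviations from group means correlated between both arrays of experiment 1 (r = 0.72) and of experiment 3 (r = 0.78). In experiment 3 against experiment 1, Cyb5r1 stood lower by -0.32 with control shRNA and by -0.31 with Ncoa3 shRNA, and Scd higher by 0.79 and 0.58. Cyb5r2, Cyb5r4 and Cyb5a were also lower in experiment 3 than in experiment 1 in both groups, and Cyb5r3, Cyb5b and Por higher (Por with Ncoa3 shRNA stood at -0.02 as deposited). For Cyb5r3 the step was 0.25 in the controls and 0.83 in the knockdown, so its Ncoa3 shRNA arrays were spread over more than its control arrays. The other members did not pass limma's test between experiments, with adjusted p = 0.154 for Cyb5r3, 0.0668 for Cyb5r2, 0.0775 for Cyb5r4, 0.182 for Cyb5a, 0.181 for Cyb5b and 0.337 for Por.

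**Figure D3:**
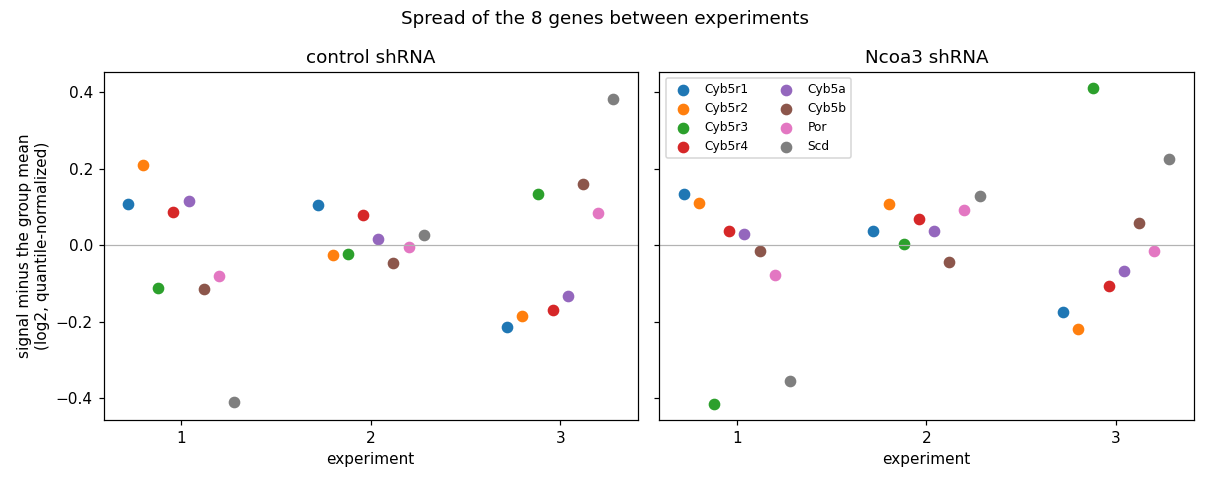
Quantile-normalized log2 signal minus the mean of the group on the y axis, by experiment on the x axis, for control shRNA and Ncoa3 shRNA arrays; each point is 1 gene on 1 array. Scd is lowest in experiment 1 in both groups, and Cyb5r1, Cyb5r2, Cyb5r4 and Cyb5a are lowest in experiment 3.

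The genes with profiles most like that of Cyb5r3 over the 6 arrays were Map9, Cnot6, Nek7, Ncoa3 and Secisbp2l. Likeness was the root mean square distance between quantile-normalized signals, each minus its gene's mean, among 9082 other genes brighter than the median. Map9, a microtubule-associated protein gene, was nearest at 0.32 log2 units, followed by Cnot6, a deadenylase gene, at 0.60, the kinase gene Nek7 at 0.67, the targeted gene Ncoa3 at 0.72 and Secisbp2l at 0.72. The median distance was 1.16. All 5 were lower on each Ncoa3 shRNA array than on each control array, with mean changes of -1.67, -1.15, -0.95, -0.97 and -0.82. After quantile normalization 19% of all genes were lower in this way. The 5 genes were picked for likeness to Cyb5r3, which fell, so their falls follow from that choice. Their points share the arrays and the division into groups.

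The genes beside Cyb5r3 on its chromosome stood close to 0. In the order of the RefSeq gene table, the 3 nearest measured genes on one side were Serhl2, Rrp7a (a ribosomal RNA processing factor) and Poldip3, at 0.02 ± 0.0622, -0.20 ± 0.0957 and 0.22 ± 0.0619 (SE). On the other side were A4galt, a glycolipid galactosyltransferase gene, at -0.20 ± 0.0600, Pacsin2, a gene of membrane shaping in endocytosis, at -0.13 ± 0.0623 and the tubulin-modifying enzyme gene Ttll1 at 0.14 ± 0.0853. Of the 6, 0 passed limma's test, where 19.5% of all genes did. Poldip3 and A4galt had an unadjusted p under 0.05 (adjusted p = 0.0527 for Poldip3, next to Cyb5r3 among the measured genes, and 0.0698 to 0.822 for the rest). With the experiment as a block Poldip3 (adjusted p = 0.0133) and Ttll1 (0.0366) rose and A4galt fell (0.0123), where 20.8% of all genes rose and 18.6% fell. Poldip3 passed higher without Ncoa3 shRNA replicate 3, where 2221 of all 18166 genes did. A4galt passed lower without control shRNA replicate 3, where 1906 of all genes did. Each also passed without experiment 3, where 4436 of all genes passed higher and 3918 lower. In the deposited values Serhl2 (-0.26), A4galt (-0.48) and Pacsin2 (-0.37) were lower, each past limma's test (adjusted p = 0.000223, 0.000115 and 0.000237). There 43.3% of all genes passed lower, and the median difference over all genes was -0.25. The deposited value of A4galt and that of Pacsin2 were the same on all 3 control arrays.

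**Figure D4:**
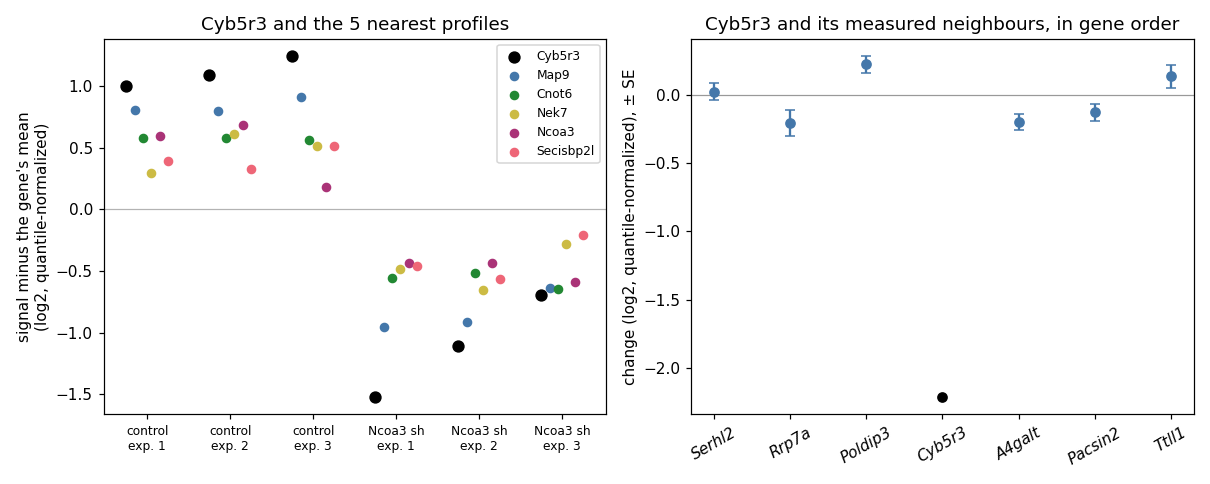
Left, quantile-normalized log2 signal minus the gene's own mean on the y axis for Cyb5r3 and the 5 nearest profiles, by array on the x axis; right, change (log2, Ncoa3 shRNA minus control shRNA, ± SE) of Cyb5r3, drawn without an error bar, and of the 3 nearest measured genes on each side. Cyb5r3 lies at -2.21 and its neighbours between -0.20 and 0.22.

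The wider pathway was read from 5 lists of 59 genes, of which 54 were measured. Together 6 rose, 3 fell and 45 did not pass, or 16.7% against 19.5% of all genes, and their median change was 0.04 against 0.01 for all genes. As deposited, 3 passed higher and 18 lower, where 3.97% of all genes passed higher and 43.3% lower. The deposited median was -0.19 against -0.25 over all genes. With the experiment as a block 11 rose and 7 fell (39.3% of all genes passed). Without both arrays of experiment 1, or of experiment 2, 0 of the 54 passed limma's test (9 and 10 at an unadjusted p under 0.05), in fits where 223 and 0 of all 18166 genes passed.

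Enzymes that receive electrons from cytochrome b5 were mixed. Of 12 measured desaturases and hydroxylases 1 rose and 1 fell (16.7%), with a median change of -0.01. With the experiment as a block 3 rose and 2 fell, where 20.8% of all genes rose and 18.6% fell. As deposited 1 was higher and 4 lower, where 3.97% of all genes were higher and 43.3% lower. Fads1, a desaturase of polyunsaturated fatty acids, stood at 12.25, 12.33 and 12.25 with control shRNA and 11.91, 11.94 and 11.92 with Ncoa3 shRNA. The groups did not overlap, and it fell by 0.22 ± 0.0402 (SE; limma's adjusted p = 0.0150). With median centring the change was -0.074 and did not pass (adjusted p = 0.718), and as deposited it was -0.36 (0.000372). Degs2, which desaturates and hydroxylates dihydroceramides, rose by 0.37 ± 0.0775 (adjusted p = 0.0232), from 6.92, 6.92 and 6.92 to 6.99, 7.05 and 7.01, and its values were the same on 2 control arrays. Its deposited difference was 0.091 (0.0105), and without genes identical on all 3 arrays of a group it did not pass (0.0623). The brightest others were Scd2, the second stearoyl-CoA desaturase, at -0.02 (adjusted p = 0.884) and Fads2, another polyunsaturated fatty acid desaturase, at 0.07 (0.637). The deposited log2 signal of Scd minus that of Scd2 within each array changed by 0.01, 0.12 and -0.15 by experiment.

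Elongation of very long fatty acid chains, which works beside the desaturases, showed 0 rises and 0 falls among 12 measured genes in limma's test (0 with the block, and 0 at an unadjusted p under 0.05). The brightest were Tecr, the last reductase of the cycle, at 0.07 (adjusted p = 0.389, and 0.29 at 0.0123 with median centring) and the elongase gene Elovl5 at 0.13 (0.163). The list's median change was 0.03, and as deposited 0 were higher and 4 lower, where 3.97% of all genes were higher and 43.3% lower.

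Of 13 measured enzymes that take electrons from Por, 4 rose and 2 fell (46.2%), where 10.5% of all genes rose and 9.04% fell; as deposited 2 were higher and 6 lower. Cyp26b1, which breaks down retinoic acid, rose by 0.52 ± 0.0948 (SE; limma's adjusted p = 0.0152). It stood at 7.90, 7.90 and 8.16 with control shRNA and 8.13, 8.20 and 8.35 with Ncoa3 shRNA, so the deposited groups overlapped. Hmox2, the constitutive haem oxygenase, rose by 0.41 ± 0.0702 (0.0124), and its 3 Ncoa3 shRNA arrays held 1 value, 10.37, against 10.21, 10.15 and 10.21. Cyp46a1, the neuronal enzyme that hydroxylates cholesterol, stood at 11.06, 11.06 and 11.18 with control shRNA and 11.27, 11.32 and 11.28 with Ncoa3 shRNA and rose by 0.37 ± 0.0697 (0.0162). As deposited Hmox2 and Cyp46a1 were higher by 0.18 (adjusted p = 0.00368) and 0.19 (0.0222), while Cyp26b1 stood at 0.24 and did not pass (0.117). Hmox2 did not pass with median centring (0.46, adjusted p = 0.0657).

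The steroid enzyme gene Cyp17a1 rose by 0.44 ± 0.0940 (adjusted p = 0.0252), while Cyp1b1 and Cyp2e1, which oxidise foreign compounds, fell by 0.42 ± 0.0690 (0.0111) and 0.26 ± 0.0563 (0.0262). As deposited Cyp17a1 stood at 0.15 and did not pass (0.475), nor did it without genes identical on all 3 arrays of a group (0.0623), and Cyp1b1 and Cyp2e1 were lower by -0.70 and -0.54 (5.14e-07 and 0.00113). Cyp2e1 did not pass with median centring (-0.26, adjusted p = 0.0538). These 3 genes were dim, with deposited control means of 6.08, 6.61 and 6.15, under the median gene at 7.89, and Cyp1b1 and Cyp2e1 each held 1 value on all 3 Ncoa3 shRNA arrays. The sterol enzyme genes Sqle at -0.05 (0.541, and lower as deposited at 0.0126) and Dhcr7 at 0.11 (0.509) were the brightest of the rest.

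Of 10 measured proteins with a cytochrome b5 fold and their partners 1 rose and 0 fell (10%), and as deposited 0 were higher and 3 lower. Neuroglobin (Ngb), a haem protein of neurons, rose by 0.31 ± 0.0571 (limma's adjusted p = 0.0152), from 8.14 on all 3 control arrays to 8.14, 8.18 and 8.18. Its deposited difference was 0.032 (adjusted p = 0.143) while the median gene stood at -0.25, and it did not pass with median centring (0.31, adjusted p = 0.112). Pgrmc1, a haem-binding membrane protein gene, stood at -0.16 (0.245) and the sulphite oxidase gene Suox at 0.22 (0.169, and 0.0302 with the block). Of 7 measured reductases with a like role and ferredoxins, their electron carriers, 0 rose and 0 fell in limma's test (0 at an unadjusted p under 0.05, and 1 fell with the block), among them the mitochondrial ferredoxin gene Fdx2 at 0.11 (0.523) and the quinone reductase gene Nqo1 at 0.04 (0.906).

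Without experiment 1 only 223 of all 18166 genes passed limma's test, and without experiment 2 none did (0 genes, with 3071 at an unadjusted p under 0.05). The 9 pathway genes past the test did not pass in either of these fits (adjusted p up to 0.294, for Ngb), while their changes kept their sign and much of their size. Ngb, for example, stood at 0.32 and 0.30 and Cyp26b1 at 0.52 and 0.48. With single arrays left out, Cyp17a1 lost it in 5 of 6 fits (adjusted p up to 0.0961), Ngb, Degs2, Cyp46a1 and Cyp2e1 in 4 each (0.0829, 0.0929, 0.0707 and 0.0934), Fads1, Hmox2 and Cyp26b1 in 3 each (0.0659, 0.0587 and 0.0726) and Cyp1b1 in 2 (0.0564). In all of these fits but 1, for Cyp17a1, the array left out came from experiment 1 or 2.

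**Figure D5:**
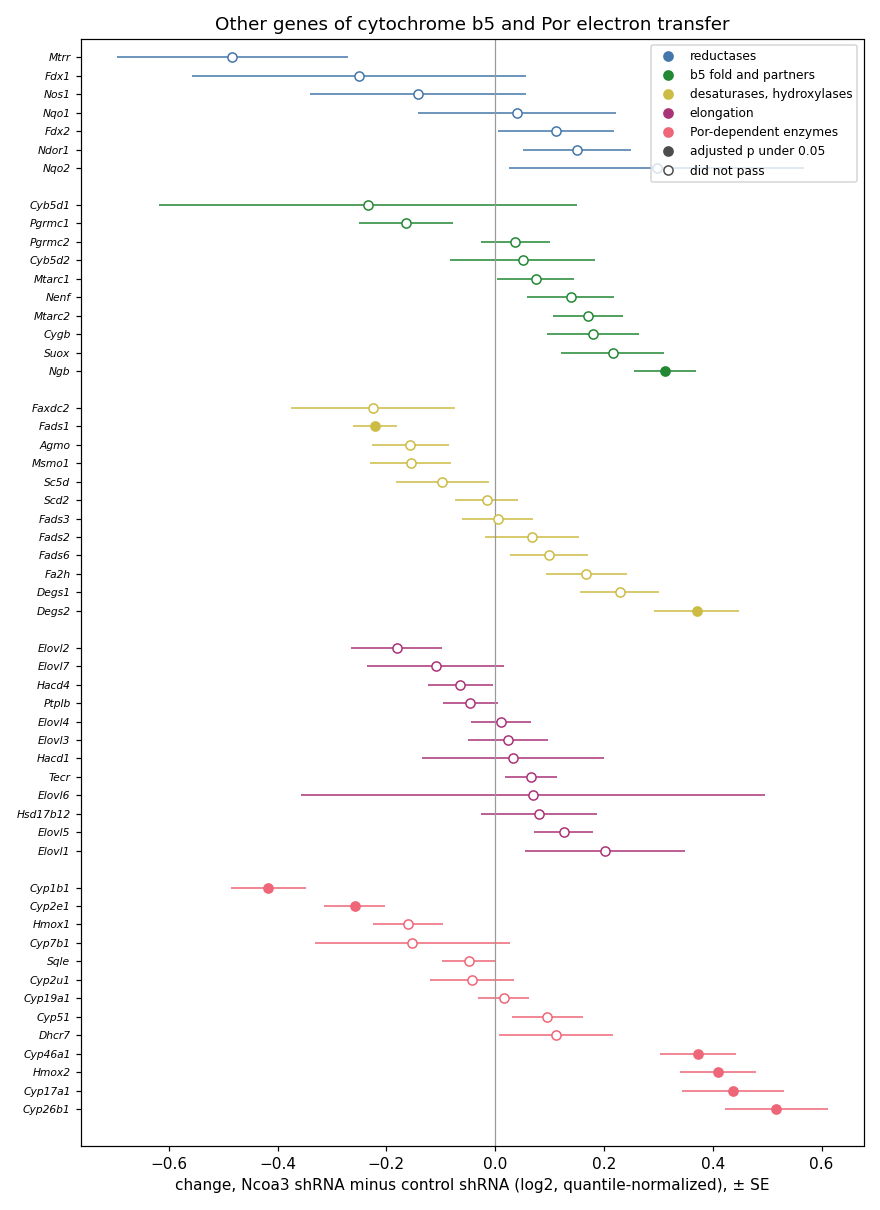
Change of the 54 other pathway genes on the x axis (log2 after quantile normalization, Ncoa3 shRNA minus control shRNA, ± SE), with genes on the y axis in 5 coloured lists; filled points had an adjusted p under 0.05 (limma). The 6 filled points on the right run from 0.31 for Ngb to 0.52 for Cyp26b1, and the 3 on the left are Cyp1b1, Cyp2e1 and Fads1.

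Among markers of cell types other than neurons, the share past the test ran from 0 of 7 to 4 of 8, where 19.5% of all genes passed. Of 8 oligodendrocyte lineage markers 2 rose (Cnp at 0.41 and Pdgfra at 0.32) and 2 fell (Sox10 at -0.47 and Mog at -0.26), or 50%. Their mean signal was 8.13 to 8.25 on control arrays and 7.90 to 8.01 on Ncoa3 shRNA arrays as deposited, and overlapped after quantile normalization at 7.99 to 8.11 and 8.05 to 8.16. Of 8 microglia markers, with 0 brighter than the median gene, 2 rose (Cx3cr1 at 0.99 and Aif1 at 0.43) and 0 fell, or 25%. Their mean signal overlapped as deposited, at 6.36 to 6.56 and 6.21 to 6.56, and was higher with Ncoa3 shRNA after quantile normalization, at 6.26 to 6.33 and 6.41 to 6.61. Of 7 markers of endothelial cells and fibroblasts 1 rose (Dcn, at 0.52) and 1 fell (Flt1, at -0.37), or 28.6%, with mean signals of 7.71 to 7.92 and 7.52 to 7.77 as deposited and 7.60 to 7.74 and 7.69 to 7.86 after quantile normalization. Of 7 astrocyte markers 0 passed (0 at an unadjusted p under 0.05), with means of 9.52 to 9.87 and 9.15 to 9.64 as deposited and 9.38 to 9.79 and 9.26 to 9.79 after quantile normalization. As deposited Cnp, Cx3cr1 and Dcn did not pass (adjusted p = 0.324, 0.109 and 0.0948). The deposited values of Sox10, Mog and Aif1 were the same on all 3 control arrays. Those of Pdgfra and of Flt1 were the same on all 3 arrays within each group, and the deposited difference of Pdgfra was 0.042. With the experiment as a block 3 oligodendrocyte lineage markers rose and 2 fell, 3 microglia markers rose and 1 fell, 3 markers of endothelial cells and fibroblasts rose and 3 fell, and 1 astrocyte marker fell. Of all genes 20.8% rose and 18.6% fell in that fit. The part of these cell types in the changes of the cytochrome b5 genes was not tested.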

How the data were processed

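The authors deposited log2 signals, 1 for each probe set on each array; the submitters' processing notes name Affymetrix Expression Console; its version, the summarisation, the normalization and the build are not stated there. Of 36685 probe sets, 18511 carried 1 gene symbol in the platform annotation, which can be old; RefSeq (GRCr8) changed 0 symbols. The brightest probe set per gene left 18166 genes. Arrays were quantile-normalized over all probe sets, which removes any change common to most genes, and fitted with limma 3.58.1 (R 4.3.3; lmFit, eBayes with a trend), as a two-sided test whose p-values were adjusted by Benjamini-Hochberg over the 18166 genes, with a threshold of 0.05; the scripts were tested on simulated data. The labels number the shared experiments, and deviations from group means correlated within experiments at r = 0.72, 0.55 and 0.78 over genes, so the numbers pair the samples; the fit with this block is an alternative. Others were the deposited values, median centring, cyclic loess, a signal minimum, genes without shared values, every probe set, no trend, and arrays or experiments left out. Where labels name no separate animals, p-values measure the spread between these samples, as far as the deposited signals hold it. For 6216 of the 18166 genes the deposited value was identical on all 3 arrays of a group. Such values hold no spread within that group as deposited, so p-values may be too small.

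Members, lists and tests were chosen with earlier results of these data known. Named were all members, the targeted gene, pathway genes past the threshold and the 2 brightest others per list, the 5 nearest profiles and 3 neighbours per side; the marker genes past the threshold were named with their values in view. Of the pathway genes 54 of 59 listed were measured.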

Additional observations from a re-analysis of the deposited data

How the results depend on the processing

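The 3548 genes past limma's threshold became 8579 in the deposited values, 1868 with median centring, 7147 with the experiment as a replicate block, 1555 among genes with a mean log2 signal of at least 6, 698 without genes identical on all 3 arrays of a group and 5938 with every probe set fitted. Leaving out 1 array gave 1426 to 3867, and leaving out an experiment gave 223 without experiment 1, 0 without experiment 2 (3071 at an unadjusted p under 0.05) and 8354 without experiment 3. The count of the 7 tested members rose from 0 to 2 in the deposited values and with the replicate block, was 0 to 1 with an array left out, and was 2 without experiment 3. The 9 pathway genes became 21 in the deposited values, 18 with the block, 3 without identical genes, 1 to 10 with an array left out, and 0 to 19 with an experiment left out. The 1 member differing between experiments, against 3411 of all 18166 genes, became 0 in the deposited values, with cyclic loess and with every probe set. The counts over all genes there were 347, 240 and 1447 (of 36685). The member count became 5 with median centring, 2 with the signal minimum and 2 without identical genes. Over all genes these fits gave 10074, 3717 (of 14845) and 2932 (of 11950). With an array left out the member count was 0 to 1, against 0 to 1368 of all genes. Without any 1 experiment both counts were 0. The falls to 0 thus came with a lower count over all genes, and the rise to 5 with a higher one. The cause was not tested, other than that some alternatives hold fewer genes or arrays.

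The sign turned in the deposited values for Cyb5r2 (-0.28), Cyb5b (-0.089), Por (-0.067), Scd (-0.10), Fdx2 (-0.026), Nqo1 (-0.22), Fads2 (-0.034), Elovl5 (-0.028), Dhcr7 (-0.044), Ttll1 (-0.047) and Serhl2 (-0.26), the last of these past limma's test. With median centring it turned for Pgrmc1 (0.018), Scd2 (0.19) and Sqle (0.087), and with cyclic loess for Scd2 (0.0095). With 1 array left out it turned for Cyb5r1 (-0.17 to 0.022), Cyb5r2 (-0.084 to 0.12), Cyb5b (-0.021 to 0.12), Scd (-0.10 to 0.30), Nqo1 (-0.13 to 0.18), Scd2 (-0.067 to 0.042), Fads2 (-0.011 to 0.13) and Serhl2 (-0.0073 to 0.064). Without experiment 1 it turned for Cyb5b (-0.014), and without experiment 2 for Cyb5r2 (-0.055) and Scd2 (0.038). Beside Cyb5r4 and Cyb5a, the block changed the calls of Suox, Poldip3, A4galt and Ttll1 and of no other gene that the results name with its adjusted p in limma's test between the groups; the markers named as past the test also passed with it. The paired form of the permutation test was chosen after seeing the data. Cyb5r3 stayed below 0 under every alternative run. The number of arrays limits the precision, and signals of dim probe sets lie closer to background.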
